A study of Mus musculus with 167 samples.

Results

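The liver makes glucose anew when food is short and stores it as glycogen after a meal. The 9 genes described here encode parts of that system: G6pc, Pck1 and Fbp1 encode enzymes of gluconeogenesis, Ppargc1a a transcriptional coactivator, Gys2 and Pygl the enzymes that build and break down liver glycogen, and Ppp1r3b, Ppp1r3c and Ppp1r3g subunits that bring protein phosphatase 1 to glycogen. They were chosen by name, and each matched 1 of the 39179 gene IDs in the deposited count table. All 9 passed the filter on low counts at every age.

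Messenger RNA was sequenced from livers of C57BL/6 mice. Animals were wild type (WT) or carried 1 knock-in copy of Htt, whose expanded CAG repeat causes Huntington's disease. The lines carry the repeat length in their names: Q20, Q80, Q92, Q111, Q140 and Q175. Livers were collected at 2, 6 and 10 months, which gave 21 groups of 8 libraries with 4 females and 4 males, except for the Q80 line, with 3 libraries labelled female and 5 labelled male at 2 months, and 4 females with 3 males at 10 months. The wild-type mice were littermates labelled as housed with Q20 mice, and Q20 served as the reference for the longer repeats. Neither the feeding state nor the hour of collection is given in the labels. The replicate labels do not state that each library came from a different animal, so p-values measure the spread between these libraries.

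Gluconeogenesis reverses glycolysis at a few steps: Pck1 turns oxaloacetate into phosphoenolpyruvate, Fbp1 removes a phosphate from fructose 1,6-bisphosphate and G6pc releases free glucose from glucose 6-phosphate. Glucagon, glucocorticoids and fasting raise transcription of these genes, and insulin lowers it, with Ppargc1a as a coactivator. Glycogen synthase (Gys2) is active when protein phosphatase 1 has removed its phosphates and glycogen phosphorylase (Pygl) when it is phosphorylated, so the subunits that hold the phosphatase on glycogen (Ppp1r3b, the main one of liver, Ppp1r3c and Ppp1r3g) favour storage. Many genes of this system also follow the clock of the liver.

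Promoters were matched by symbol to RefSeq sequences (GRCm38.p6), each from 250 bases before to 50 bases after the start of the gene, and 7 of the 9 genes had one. The 5 printed here are those with a match to 1 of 3 motifs, and those of Fbp1 and Pygl had none. Capitals mark the matches to these motifs, searched on both strands: ACGTCA or its reverse complement TGACGT, the core of the cAMP response element, TTACGTAA, the palindrome bound by clock-driven factors such as Dbp, and the E-box CACGTG. The first sits at chr2:173152823-173153122 on the plus strand, the next at chr5:51567676-51567975 on the minus strand, then chr13:35967656-35967955 (plus), chr11:101367466-101367765 (plus) and chr19:36736555-36736854 (minus).
Pck1: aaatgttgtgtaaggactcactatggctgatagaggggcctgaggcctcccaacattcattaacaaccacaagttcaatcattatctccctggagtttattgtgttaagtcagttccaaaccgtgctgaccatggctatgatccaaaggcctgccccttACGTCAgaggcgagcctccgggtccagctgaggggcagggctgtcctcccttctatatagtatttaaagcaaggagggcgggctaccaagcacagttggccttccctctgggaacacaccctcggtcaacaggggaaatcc
Ppargc1a: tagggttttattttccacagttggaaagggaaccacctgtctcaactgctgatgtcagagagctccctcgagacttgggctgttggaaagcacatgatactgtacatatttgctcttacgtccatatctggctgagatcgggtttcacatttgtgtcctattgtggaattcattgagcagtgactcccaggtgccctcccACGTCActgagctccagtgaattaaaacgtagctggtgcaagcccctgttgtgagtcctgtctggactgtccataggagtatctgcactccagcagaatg
Ppp1r3g: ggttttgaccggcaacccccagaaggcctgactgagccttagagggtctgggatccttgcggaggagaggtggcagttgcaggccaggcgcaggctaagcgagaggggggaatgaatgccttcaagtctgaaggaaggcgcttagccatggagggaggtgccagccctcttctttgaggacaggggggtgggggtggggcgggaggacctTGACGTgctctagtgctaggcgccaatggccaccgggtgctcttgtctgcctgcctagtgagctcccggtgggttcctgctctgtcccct
G6pc: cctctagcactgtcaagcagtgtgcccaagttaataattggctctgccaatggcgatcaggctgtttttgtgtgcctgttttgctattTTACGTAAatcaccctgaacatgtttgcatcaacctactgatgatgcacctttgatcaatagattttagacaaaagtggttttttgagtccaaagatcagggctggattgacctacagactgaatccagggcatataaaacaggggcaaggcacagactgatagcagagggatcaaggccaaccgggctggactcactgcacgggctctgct
Ppp1r3c: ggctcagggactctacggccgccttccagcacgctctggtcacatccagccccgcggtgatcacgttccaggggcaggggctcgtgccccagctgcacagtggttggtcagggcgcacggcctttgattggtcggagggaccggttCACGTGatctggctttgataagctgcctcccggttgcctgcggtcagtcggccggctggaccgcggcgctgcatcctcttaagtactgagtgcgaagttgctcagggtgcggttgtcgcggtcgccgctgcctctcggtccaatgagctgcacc

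The cAMP response core was found once in each of Pck1, Ppargc1a and Ppp1r3g, 3 of the 7 promoters, and in 7.51% of the 32851 promoters of the RefSeq table. TTACGTAA was found in G6pc and in 0.119% of all promoters. CACGTG was found in Ppp1r3c and in 7.15%. A search for TGTTTT, the core bound by FOXO factors, gave 3 matches in G6pc, none of them overlapping the palindrome, and none in the other 6 promoters, against 22.1% of all promoters with at least 1. The RefSeq starts of Ppp1r3g and Pygl lie inside the wider spans that GENCODE gives these genes, so their windows do not cover the outermost GENCODE starts. Those of G6pc, Pck1 and Ppp1r3c lie a short way inside, with the GENCODE start within the window. These matches describe the letters of 300 bases and nothing about binding.

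Total counts per library ran from 32025244 to 57151736. The 5 hepatocyte markers (Alb, Apoa1, Ttr, Cps1 and Tat) summed to between 53555.3 and 134868.1 CPM (counts scaled to library size) in every library. The Q80 library labelled male M5 at 2 months went against its label, with 0 CPM summed over 4 Y-linked genes where the other male libraries had at least 104.0 CPM. It was kept under its label. Values without it are given for the G6pc sex difference, the count of sex calls at 2 months and Ppp1r3b between 6 and 2 months. At 6 months 3 Q20 females (F1, F3 and F4) had 647.2, 686.4 and 752.3 CPM summed over 6 Kupffer cell markers, against 239.4 to 442.7 CPM in the other Q20 libraries. At 10 months the Q175 libraries F3 and F4 had 781.5 and 24.2 CPM summed over 6 skeletal muscle markers, and M4 had 7874.0 CPM of 5 red cell genes. Column names also carry a code that begins with the name of a line, and its meaning is not given. At 2 and 10 months females and males of a line carried different codes, apart from the Q80 library M5, which had the female code. Each knock-in line had its own codes, and WT shared those of Q20. The codes of each line also differed between 2 and 10 months. Neither sex nor knock-in line can therefore be told apart from this code at 2 and 10 months, nor can age between them. The column names give no such code for the knock-in libraries of 6 months. Knock-in libraries carried 1 index set at 6 months and another at 2 and 10 months, where a set was given, and WT libraries of 6 months carried the latter. Index set therefore cannot be told apart from genotype between WT and Q20 at 6 months, nor from age between 6 months and the other ages.

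Compared per transcript length, Pck1 was the most abundant of the 9 with a median over all libraries of 1082.1 FPKM (fragments scaled by transcript length and library depth), followed by Fbp1 with 555.6 FPKM. Pygl (145.2 FPKM), G6pc (92.7), Gys2 (86.9) and Ppp1r3b (40.3) formed a middle range. Ppp1r3c had a median of 13.2 FPKM, Ppargc1a 2.46 and Ppp1r3g 0.903. The ranges of single libraries overlapped between neighbours in this order except for Fbp1 (418.4 to 875.6 FPKM) and Pygl (94.4 to 218.6 FPKM). The genes also differed in how much they varied between libraries of 1 group. The SD of log2 CPM within groups of the same genotype, age and sex was 1.45 for Ppp1r3g, 0.851 for G6pc and 0.75 for Ppp1r3c. It was 0.139 for Fbp1 and 0.159 for Pygl, so the latter genes could show far smaller differences. Pck1 (0.559), Ppp1r3b (0.552), Gys2 (0.377) and Ppargc1a (0.353) lay between.

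Sex was the factor with which most of the 9 genes differed. Females had lower G6pc, Pygl and Ppp1r3c than males at every age and higher Fbp1, Ppargc1a and Gys2. Ppp1r3g was called higher in females at 2 and 6 months. Counts past the threshold (adjusted p below 0.05 in edgeR's quasi-likelihood test, fitted and adjusted across all genes, as everywhere below) were 7 of 9 at 2 months, 7 at 6 months and 6 at 10 months. These shares are to be read against a background in which 57.6, 60.9 and 57.2% of all genes tested passed at the 3 ages.

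G6pc (chromosome 11, 101367561 to 101377903, plus strand of GRCm38) showed the widest sex difference among the abundant members. At 6 months the 28 female libraries ran from 48.0 to 383.0 CPM with a median of 137.0, and the 28 male libraries from 112.4 to 633.0 CPM with a median of 374.7. The ranges overlapped, but the female mean was below the male mean in 20 of the 21 groups. The log2 difference of females against males was −1.39 ± 0.18 (SE) at 2 months (adjusted p = 3.65e-09), −1.34 ± 0.20 at 6 months (6.48e-08) and −1.04 ± 0.28 at 10 months (0.00153). Q20 at 10 months was the exception, with a mean of 139.3 ± 86.8 CPM (SD, n = 4) in females and 99.6 ± 49.5 CPM (n = 4) in males. Without the Q80 library M5 the difference at 2 months was −1.42 ± 0.17.

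Ppp1r3c (chromosome 19, 36731731 to 36736653, minus strand), which encodes the phosphatase subunit known as protein targeting to glycogen, had a female median of 22.3 CPM and a male median of 46.1 CPM at 6 months. Its log2 difference was −0.96 ± 0.19 at 2 months (adjusted p = 2.64e-05), −0.88 ± 0.20 at 6 months and −0.87 ± 0.20 at 10 months. The female mean was lower in 20 of 21 groups. Pygl (chromosome 12, 70190811 to 70231488, minus strand) differed less but without exception, with the female mean lower in all 21 groups, as for 10.8% of the 14978 genes tested at every age. The differences were −0.33 ± 0.04 at 2 months, −0.30 ± 0.04 at 6 months and −0.36 ± 0.05 at 10 months (adjusted p = 8.52e-08). A long noncoding RNA on the other strand, F730035M05Rik, overlaps Pygl and is counted in the same table, and the strand setting of the counting is not given in the sources used here.

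Gys2 (chromosome 6, 142422613 to 142473109, minus strand) was higher in females by 0.55 ± 0.09 on the log2 scale at 2 months (adjusted p = 1.66e-06), 0.67 ± 0.10 at 6 months (6.63e-08) and 0.28 ± 0.10 at 10 months (0.0169). Medians at 6 months were 255.4 CPM in females and 163.9 CPM in males. Ppargc1a (chromosome 5, 51454250 to 51567726, minus strand, 16.5 Mb from Htt) differed by 0.38 ± 0.10, 0.57 ± 0.09 and 0.27 ± 0.09 at the 3 ages. Fbp1 (chromosome 13, 62864753 to 62888282, minus strand) differed by 0.11 ± 0.04 at 2 and 6 months and 0.19 ± 0.04 at 10 months, where the medians were 873.2 CPM in females and 779.3 CPM in males. For these 3 genes the female mean was higher in 19, 20 and 19 of the 21 groups.

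Ppp1r3g (chromosome 13, 35958839 to 35970388, plus strand), a subunit linked to glycogen storage after a meal, was higher in females by 1.19 ± 0.34 at 2 months (adjusted p = 0.0027) and 1.61 ± 0.38 at 6 months (0.000263), and by 0.17 ± 0.58 at 10 months (0.824). At 6 months females ran from 0.914 to 23.2 CPM and males from 0.102 to 9.19 CPM. At 10 months females ran from 0.512 to 57.8 CPM with a median of 1.83, and males from 0.186 to 84.5 CPM with a median of 1.13. The female mean was higher in 19 of the 21 groups. Changes of the sex difference with age were fitted without WT, so they are not the gaps between the values above. The change of the sex difference from 6 to 10 months was −2.43 ± 0.69 and did not pass the threshold (adjusted p = 0.139), nor did the change from 2 to 10 months (−2.06 ± 0.70, adjusted p = 0.0909 with edgeR and 0.0431 with DESeq2). For the change of the sex difference between 2 and 6, 2 and 10, and 6 and 10 months no member passed with edgeR, 0, 1 and 1 had an unadjusted p below 0.05, and 0.583, 2.15 and 0.164% of all genes passed. Pck1 (chromosome 2, 173153048 to 173159273, plus strand) was 0.29 ± 0.14, 0.28 ± 0.13 and 0.09 ± 0.15 higher in females and passed at no age (adjusted p = 0.0765, 0.0662 and 0.64). Ppp1r3b (chromosome 8, 35375739 to 35388139, plus strand) differed by 0.07 ± 0.12, −0.11 ± 0.12 and 0.38 ± 0.18 (adjusted p = 0.663, 0.47 and 0.0655). Leaving out the Q80 library M5 kept the count at 2 months at 7.

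**Figure D1:**
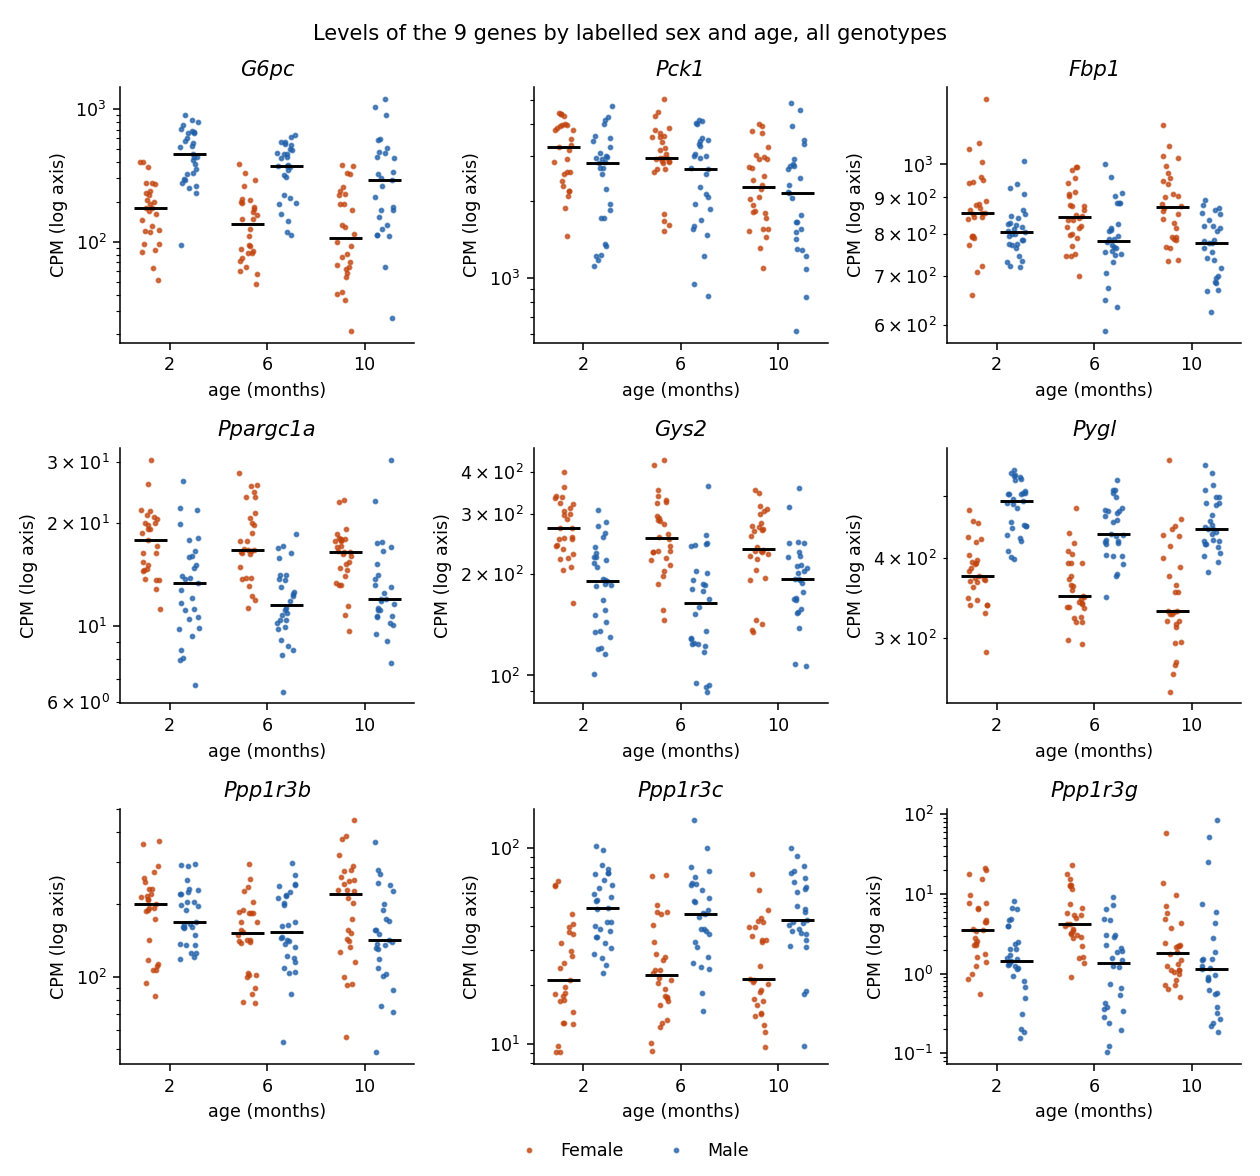
Each point is 1 library, with CPM on a log axis against age in months, females red and males blue by label, and black bars for medians over all genotypes. G6pc, Pygl and Ppp1r3c lie lower in females at the 3 ages, Gys2, Ppargc1a and Fbp1 higher, and Ppp1r3b shows no called difference.

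Clock genes also differed between the sexes: of 15 tested, 10 were higher and 5 lower in females at 2 months and at 6 months, and 9 higher and 5 lower at 10 months. Arntl, the activating clock factor, was lower in females by 2.39 ± 0.27, 2.69 ± 0.25 and 1.8 ± 0.23 on the log2 scale at 2, 6 and 10 months. Dbp, a clock-driven transcription factor, was 0.79 ± 0.16, 1.39 ± 0.21 and 0.55 ± 0.15 higher. The 6 Kupffer cell markers were higher in females in 6, 6 and 5 cases. The part of either in the sex differences of the 9 genes was not tested.

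Other genes of glucose and glycogen metabolism differed in both directions between the sexes. Among 18 other glycogen genes tested at 6 months 8 were higher and 5 lower in females, with a list median of 0.06 against 0.01 over all genes. The phosphorylase kinase subunit gene Phkb differed by −0.31 ± 0.04. Of 15 partners in gluconeogenesis 6 were higher and 2 lower, among them the mitochondrial enzyme gene Pck2 at 0.48 ± 0.06 and Ldha at −0.41 ± 0.06. Of 13 genes of glycolysis and hexose entry 4 were higher, such as the glucose transporter Slc2a2 at 0.55 ± 0.08, and 4 lower, such as Pgam1 at −0.37 ± 0.04. Of 17 hormone and transcription control genes 7 were higher and 4 lower, with the glucagon receptor Gcgr at −0.31 ± 0.03.

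Fewer of the 9 genes passed between ages, which were compared over the 6 knock-in lines without WT. At 6 months G6pc was 0.45 ± 0.17 lower than at 2 months on the log2 scale (adjusted p = 0.0182), Ppp1r3b 0.25 ± 0.11 (0.0484), Pygl 0.13 ± 0.04 (0.0037) and Fbp1 0.09 ± 0.03 (0.0109), so 4 of 9 passed where 54.5% of all genes did. These ages also differ in index set. Ppp1r3b lost this call without the Q80 library M5 (adjusted p = 0.0681). At 10 months Pck1 was 0.32 ± 0.11 lower than at 2 months (adjusted p = 0.0226), the 1 call of 9 where 21.5% of all genes passed. Libraries of 2 and 10 months also differ in the codes of their column names. Ppp1r3g had the largest difference between these ages without passing, at 0.84 ± 0.35 higher at 10 months (adjusted p = 0.0751). Its medians over all genotypes, here with WT, were lower at 10 months. They were 1.83 CPM against 3.48 CPM at 2 months in females and 1.13 against 1.42 CPM in males. Single libraries of 10 months reached 57.8 CPM in females and 84.5 CPM in males. With limma the direction of this difference was reversed. Median Pck1 in females of all genotypes, with WT, was 3244.9 CPM at 2 months and 2276.9 CPM at 10 months. Between 10 and 6 months no member passed with edgeR or DESeq2, 1 (Pck1, adjusted p = 0.0569) had an unadjusted p below 0.05, and 54.9% of all genes passed.

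The main question of the design was whether the length of the CAG repeat changes expression. For these 9 genes few differences passed. Against Q20, 1 member was called in Q175, at 6 months, and 3 of the 108 tests of Q80, Q92, Q111 and Q140 over the 3 ages. No member was called between Q20 and WT at any age with edgeR, none had an unadjusted p below 0.05, and DESeq2 called none either. Of all genes, 0, 32.2 and 0.0127% passed between Q20 and WT at 2, 6 and 10 months. In Q175 against Q20 0.31, 10.9 and 1.26% passed. At 2 months no member was called in Q175, where 3 had an unadjusted p below 0.05 and DESeq2 called 0, and at 10 months none was called, where 1 had an unadjusted p below 0.05 and DESeq2 called 1. In the lines Q80, Q92, Q111 and Q140 the shares of all genes that passed were 0.0991, 0, 0 and 0% at 2 months, 9.3, 18, 1.24 and 5.98% at 6 months and 0.0127, 4, 1.11 and 0.00637% at 10 months. No member was called in these lines at 2 months with edgeR or DESeq2, and 5 of the 36 tests had an unadjusted p below 0.05.

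Ppp1r3b was the member that differed in Q175. At 6 months the Q20 females had 78.1, 101.4, 89.3 and 149.4 CPM and the Q20 males 136.8, 145.0, 84.4 and 140.5 CPM. The Q175 females had 227.6, 183.0, 236.5 and 203.4 CPM and the males 263.7, 217.5, 197.8 and 212.7 CPM. Every Q175 library lay above every Q20 library, as for 0.247% of genes. The means were 115.6 ± 30.1 CPM (SD, n = 8) in Q20 and 217.8 ± 25 CPM (n = 8) in Q175, and the log2 difference was 0.89 ± 0.23 (SE, adjusted p = 0.00894), a fold of 1.86.

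The same direction was seen in both sexes, at 1.01 ± 0.27 in females alone (adjusted p = 0.0375) and 0.80 ± 0.31 in males alone (0.113), which ended the call in males. Leaving out each of the 16 libraries in turn gave values from 0.83 to 0.98, all called. With Q20 females F1, F3 and F4 left out, which are the libraries with high Kupffer cell markers, the value was 0.86 ± 0.27 and no longer called (adjusted p = 0.14). All 6 Kupffer cell markers and 4 of 4 neutrophil markers were lower in Q175 than in Q20 at this age. Their part in the result was not tested.

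The group means of the other knock-in lines at 6 months were all above that of Q20 and below that of Q175. Group means of Ppp1r3b were 132.5 ± 59.0 CPM in WT, 146.9 ± 35.9 in Q111, 162.9 ± 74.5 in Q92, 174.3 ± 64.4 in Q140 and 184.4 ± 43.1 in Q80 (SD, n = 8 each). None of these lines passed against Q20, with adjusted p from 0.0574 in Q80 to 0.45 in Q111. The slope over the 6 knock-in lines was 0.48 ± 0.13 on the log2 scale per 100 repeats (adjusted p = 0.0173, where 6.27% of genes passed). It was no longer called without the Q20 libraries (0.32 ± 0.19), without the Q175 libraries (0.41 ± 0.19), or with the rank of the repeat length (adjusted p = 0.0683). The slope was called for no member at 2 months (0.272% of all genes; 4 members at an unadjusted p below 0.05, 1 with DESeq2) or at 10 months (0.595%; 1 and 0). At 2 months Q175 differed from Q20 by 0.47 ± 0.23 (adjusted p = 0.341) and at 10 months by −0.20 ± 0.33 (0.846). The slope differed between 6 and 10 months by −0.57 ± 0.22 (adjusted p = 0.126), short of the threshold.

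**Figure D2:**
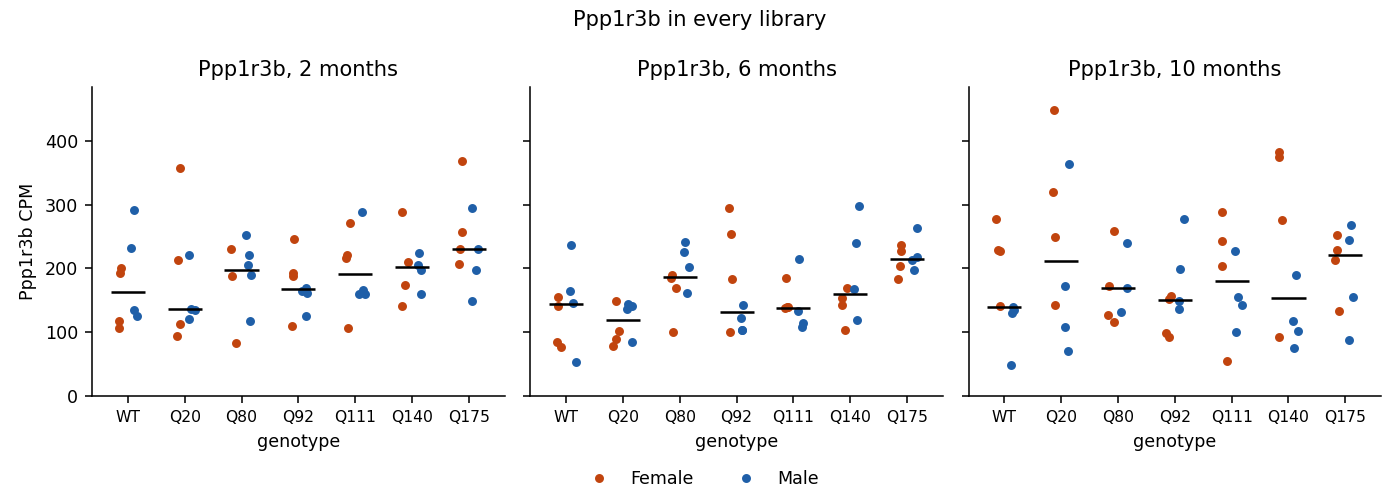
Ppp1r3b in CPM by genotype at 2, 6 and 10 months, with 1 point per library, females red, males blue and black bars for group medians. At 6 months the 8 Q175 libraries lie between 183.0 and 263.7 CPM, above the 8 Q20 libraries.

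Genes around Ppp1r3b in the same pathway differed in Q175 at 6 months. Of 10 fed state genes 3 rose, the transcription factor Mlxipl by 0.40 ± 0.11 on the log2 scale, malic enzyme Me1 by 0.66 ± 0.19 and Pnpla3 by 1.33 ± 0.39. The list median was 0.39 against −0.01 over all genes. Of 6 other phosphatase subunits tested Ppp1r3d fell by 1.13 ± 0.26 and Ppp1r3e rose by 0.40 ± 0.12. Of 17 hormone and transcription control genes 3 fell, the insulin receptor Insr by 0.31 ± 0.06, Ppara by 0.70 ± 0.14 and Irs2 by 0.71 ± 0.23. Of 18 other glycogen genes 1 rose (Gsk3a, 0.18 ± 0.06).

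Among the glycogen enzymes Gys2 was lower in Q80 than in Q20 at 6 months. Q20 females had 325.2, 232.8, 434.6 and 417.8 CPM and males 123.8, 93.7, 245.9 and 242.3 CPM. Q80 females had 145.6, 292.0, 211.4 and 231.9 CPM and males 117.1, 127.8, 89.5 and 123.8 CPM. The groups overlapped, and within each sex the higher values were mostly those of Q20. The difference was −0.67 ± 0.19 (adjusted p = 0.0181, where 9.3% of genes passed). It lost its call without Q20 female F3 (−0.59 ± 0.19, adjusted p = 0.0504), without F4 (−0.59 ± 0.19, 0.055) and without F1, F3 and F4 together (−0.40 ± 0.21, 0.396). In each sex alone it was −0.69 ± 0.22 in females (0.0607) and −0.63 ± 0.28 in males (0.372). Gys2 in Q140 was −0.55 ± 0.18 against Q20 (adjusted p = 0.0644) and in Q175 −0.41 ± 0.18 (0.14). One Kupffer cell marker of 6 and 4 of 4 neutrophil markers were lower in Q80, and their part was not tested.

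Ppp1r3g gave the largest values at 10 months. The 8 Q20 libraries ran from 0.236 to 1.33 CPM and the 8 WT libraries from 0.186 to 2.24 CPM. Among the longer repeats, single libraries stood far above this: Q80 male M3 with 84.5 CPM, Q92 males M2 and M3 with 51.7 and 25.3 CPM, and Q175 female F3 with 57.8 CPM. The medians of the groups were closer together, at 1.04 CPM in Q20, 3.74 in Q80, 3.28 in Q92, 3.36 in Q111, 1.51 in Q140 and 1.34 in Q175. All groups overlapped with Q20.

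Q92 against Q20 was called for Ppp1r3g, at 3.84 ± 1.05 on the log2 scale (adjusted p = 0.0273, where 4% of genes passed). It was 2.90 ± 1.02 without Q92 male M2 (0.0763), 3.86 ± 1.11 without Q20 female F3 (0.0568), 3.70 ± 1.11 without Q20 male M1 (0.0507) and 3.69 ± 1.11 without Q20 male M3 (0.0559), each no longer called. Females alone gave 0.86 ± 1.16 and males alone 5.36 ± 1.32, neither of them called. The values for Q80 (4.17 ± 1.06, adjusted p = 0.156), Q175 (3.33 ± 1.02, 0.0923) and Q111 (2.49 ± 1.04, 0.283) did not pass. The Q175 value was 0.87 without female F3 and 0.29 without the 3 libraries with muscle or blood RNA, of which F3 is 1, and DESeq2 called Q175 at 3.25 ± 0.84 with all libraries. At the same age Arntl was 2.05 ± 0.42 higher in Q92 than in Q20, and of 15 clock genes 2 were higher and 4 lower. The summed level of 5 adipocyte markers ran from 0.0254 to 16.4 CPM in Q92 and from 0 to 0.79 CPM in Q20. In Q92 at 10 months M1 carried another code in its column name than the other males, and F2 another than the other females. Ppp1r3g was 0.548 CPM in M1 and 51.7, 25.3 and 7.48 CPM in M2, M3 and M4. It was 2.29 CPM in F2 and 0.718, 4.28 and 1.11 CPM in F1, F3 and F4. The part of the clock genes, the adipocyte markers or this code in the Q92 values was not tested.

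Ppargc1a was the other member called in Q92 at 10 months. Q92 females had 17.9, 15.2, 17 and 17.9 CPM and males 11.8, 23.1, 17.4 and 16.5 CPM, while Q20 females had 11.4, 13.2, 9.67 and 16.0 CPM and males 9.46, 15.2, 7.8 and 10.7 CPM. Most Q92 values lay above most Q20 values, with an overlap. Among these Q92 libraries M1 and F2 carried another code in the column name than the others of their sex, as above. The difference was 0.57 ± 0.17 (adjusted p = 0.0426). It kept its call in 4 of the 16 fits that left out 1 library, with values from 0.47 to 0.66 and adjusted p from 0.0224 to 0.113: without Q20 F4 or M2, or Q92 F2 or M1. Leaving out any other of these libraries (Q20 F1, F2, F3, M1, M3 or M4, Q92 F1, F3, F4, M2, M3 or M4) ended it. Ppargc1a in Q175 was −0.50 ± 0.19 against Q20 at 2 months (adjusted p = 0.208), −0.28 ± 0.17 at 6 months and 0.24 ± 0.17 at 10 months.

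G6pc was not called in any line, although its means at 10 months differed widely. They were 119.5 ± 68.8 CPM in Q20 and 119.7 ± 74.8 in WT, then 200.6 ± 190.5 in Q140, 252.6 ± 159.6 in Q111, 260.0 ± 165.2 in Q175, 406.3 ± 372.6 in Q80 (n = 7) and 427.3 ± 369.8 in Q92 (SD, n = 8 for the others). The males carried most of this: Q20 males had 111.8, 125.5, 134.6 and 26.7 CPM, Q92 males 292.7, 1028.2, 903.5 and 583.5 CPM and Q80 males 428.6, 435.9 and 1192.6 CPM. Of these Q92 males M1, at 292.7 CPM, carried another code in its column name than the others. Every male of Q80 and of Q92 lay above every Q20 male, as for 4.42 and 3.01% of genes, and females of these lines overlapped with Q20 females. The log2 difference was 1.4 ± 0.53 in Q92 (adjusted p = 0.119) and 1.45 ± 0.53 in Q80 (0.495), and Q80 was 2.79 ± 0.59 in males alone (adjusted p = 0.0394) and 0.50 ± 0.78 in females alone (0.987). Whether the sexes of Q80 differ in this was not tested. At 2 months Q175 differed by 1.0 ± 0.32 (0.139), with means of 257.3 ± 144.7 CPM in Q20 and 492.7 ± 252.7 CPM in Q175, and the slope was 0.64 ± 0.18 per 100 repeats (0.0756 with edgeR, 0.048 with DESeq2).

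**Figure D3:**
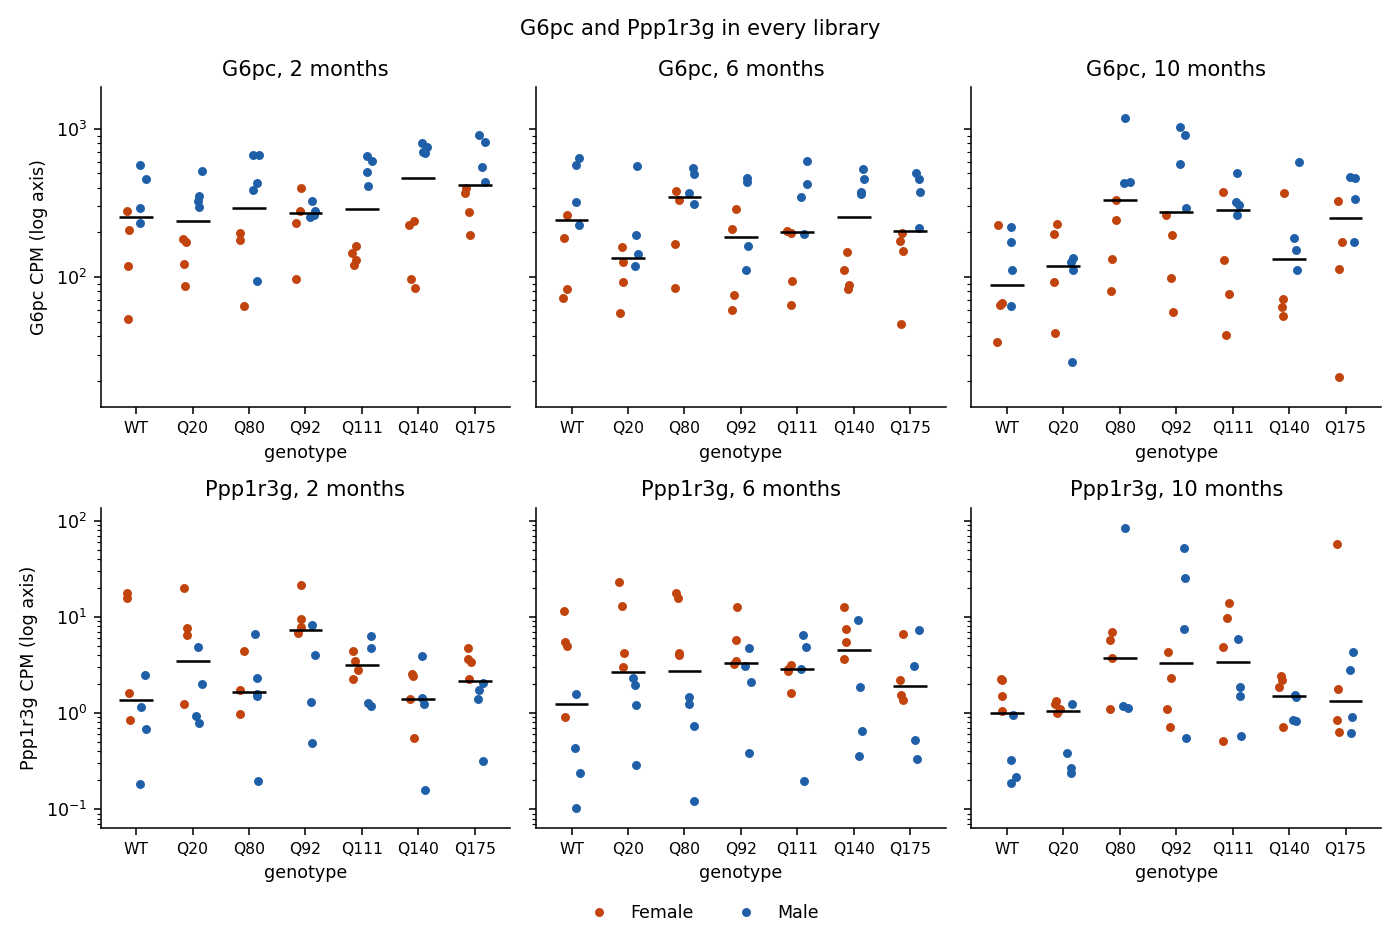
G6pc (upper row) and Ppp1r3g (lower row) in CPM on log axes by genotype at 2, 6 and 10 months, 1 point per library, females red, males blue and black bars for group medians. At 10 months a few Q80, Q92 and Q175 libraries reach 25.3 to 84.5 CPM of Ppp1r3g while Q20 and WT stay at or below 2.24 CPM.

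Pck1 in Q80 at 10 months ran from 2238.9 to 4835.0 CPM (n = 7) and in Q20 from 1286.6 to 2177.1 CPM (n = 8). The groups did not overlap, as for 0.0401% of genes with higher values in Q80, yet the difference of 0.93 ± 0.29 did not pass (adjusted p = 0.333, with 0.0127% of genes called in that comparison). Fbp1, Pygl and Ppp1r3c were called in no line at any age. For Fbp1 the differences from Q20 ranged from −0.19 ± 0.07 in Q140 at 6 months to 0.24 ± 0.07 in Q140 at 2 months (adjusted p = 0.0899 and 0.145). For Pygl they ranged from −0.18 ± 0.10 in Q175 at 10 months to 0.18 ± 0.07 in Q140 at 2 months, and for Ppp1r3c from −0.67 ± 0.35 in Q92 at 2 months to 0.47 ± 0.38 in Q80 at 6 months. Differences of the slope between ages were called for none of the 9 genes with edgeR or DESeq2, and between sexes for none with edgeR and 1 with DESeq2. Of the 27 edgeR tests of each kind, 7 and 4 had an unadjusted p below 0.05. Of all genes, 0.21, 0.668 and 3.79% passed for the slope between 2 and 6, 2 and 10, and 6 and 10 months, and 0, 0.226 and 0.173% for the slope between sexes at 2, 6 and 10 months.

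**Figure D4:**
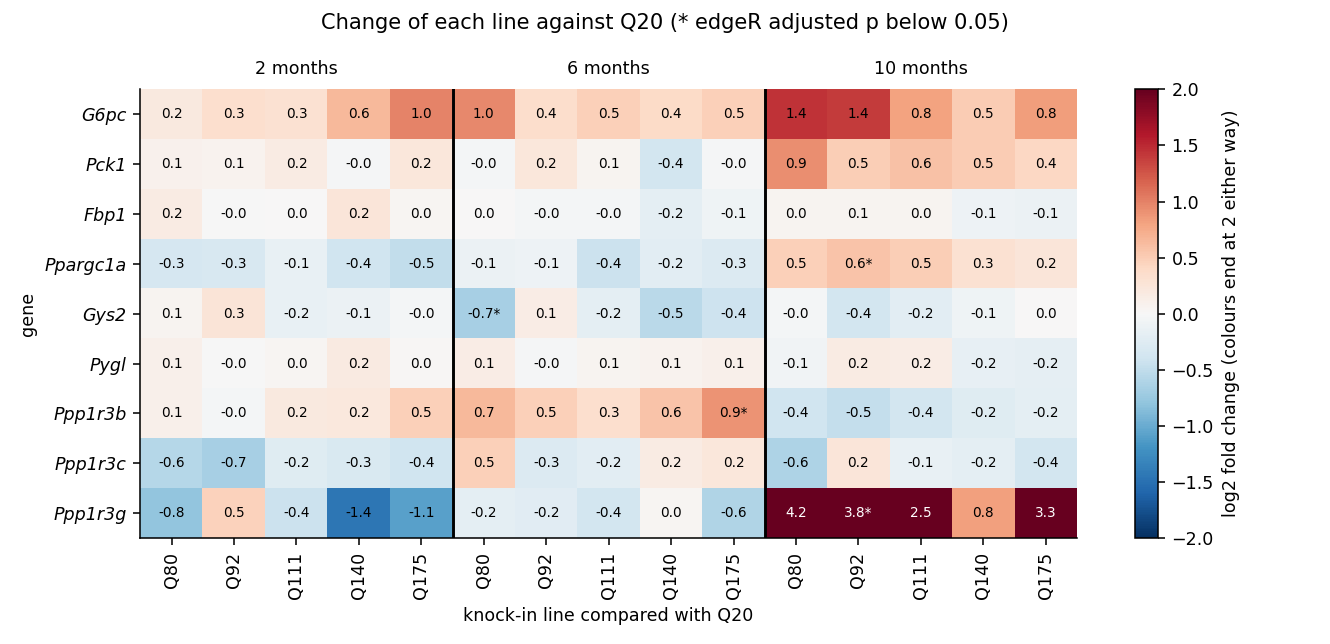
Log2 fold change of each knock-in line against Q20 for each gene, with colours ending at 2 in either direction and asterisks on the calls. The 4 calls are Ppp1r3b in Q175 and Gys2 in Q80 at 6 months, and Ppargc1a and Ppp1r3g in Q92 at 10 months. The lines of an age share their Q20 libraries, so columns are not independent.

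Pairs of the 9 genes were also compared over libraries of the same genotype, age and sex. After the mean of each such group was subtracted from log2 CPM, 20 of the 36 pairs were correlated over all libraries (permutation test, 100000 permutations, two-sided, adjusted over 36 pairs), 15 positively and 5 negatively. The weakest called pair, G6pc and Ppp1r3g, had an absolute r of 0.17, and 32.8% of all gene pairs reached that value. By Spearman rank correlation (rho) this pair did not pass (permutation test, adjusted p = 0.0857). The permutations took no account of the group means subtracted beforehand, so their p-values are too small to some degree. Ppp1r3c was in all 5 negative pairs. Shared library quality and composition enter all of these values.

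Pck1 and Ppp1r3g were the pair with the highest correlation, at r = 0.62 and rho = 0.60 (permutation p = 1e-05, the smallest the permutations can give, adjusted p = 3.6e-05 and 3e-05). Within 2, 6 and 10 months r was 0.69, 0.71 and 0.50, and without the 2 libraries furthest from the median of Pck1 0.62. Gys2 and Ppp1r3g gave r = 0.62 and rho = 0.62 (0.63 without the 2 furthest), Ppargc1a and Ppp1r3g 0.58 and 0.59 (0.56), and Pck1 and Gys2 0.49 and 0.47 (0.48), all with permutation p = 1e-05 for both measures. The last pair was at 0.72 at 2 months and 0.22 at 10 months.

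Pck1 and Ppp1r3c were related in the opposite direction, with r = −0.54 and rho = −0.55 (permutation p = 1e-05, −0.54 without the 2 furthest), and −0.49, −0.56 and −0.59 within the 3 ages. G6pc and Ppp1r3b had r = 0.45 and rho = 0.45 (0.50 without the 2 furthest), G6pc and Pygl 0.43 and 0.39 (0.42), and Pygl and Ppp1r3b 0.41 and 0.34 (0.38), with permutation p of at most 3e-05. G6pc and Pck1, both gluconeogenic enzymes, had r = 0.44 and rho = 0.45 (0.46). G6pc and Ppargc1a were not related by this test, at r = −0.10 and rho = −0.09 (permutation p = 0.209 and 0.264, adjusted p = 0.279).

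**Figure D5:**
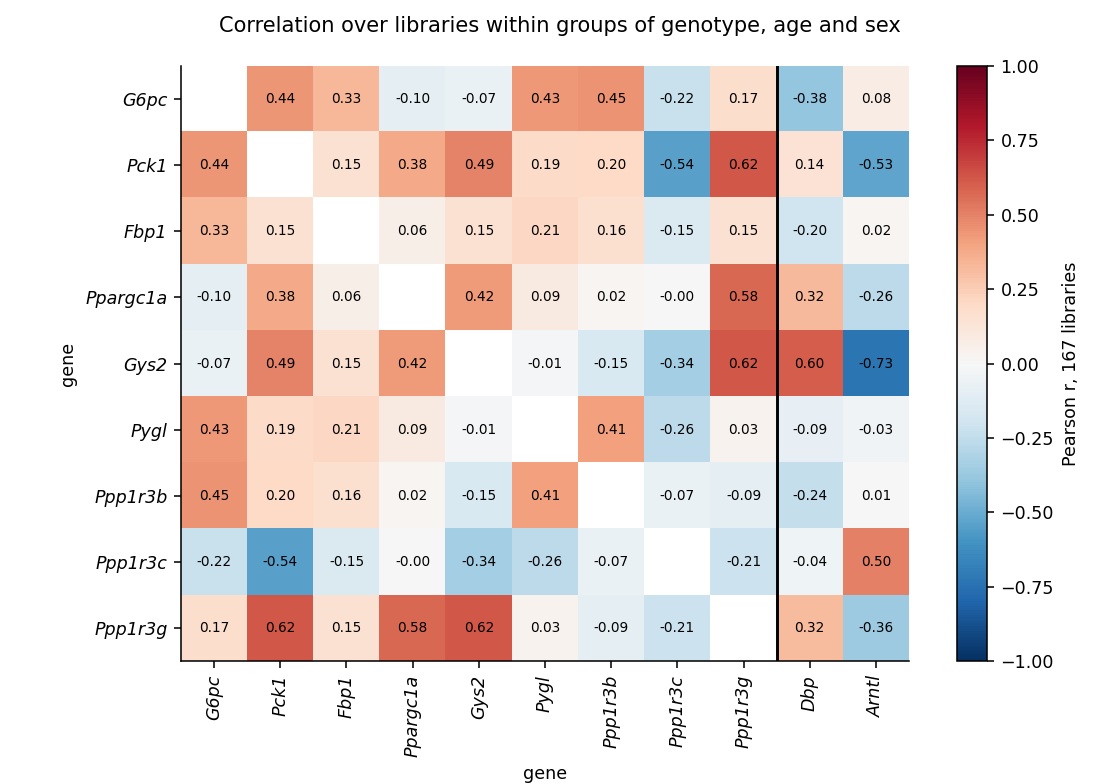
Pearson r over all libraries for each pair of the 9 genes and, right of the line, for each gene with the clock genes Dbp and Arntl, after subtraction of the mean of genotype, age and sex. Red is positive and blue negative, and the most extreme value is −0.73 between Gys2 and Arntl.

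The clock genes varied between libraries of a group as well, so each gene was also set against Dbp and Arntl, a choice made after their values were seen. Of these 18 relations 11 passed (permutation test, adjusted over 18), 6 with Dbp and 5 with Arntl. Of all genes, 24.4% had an absolute r to Dbp, and 22.9% to Arntl, at or above that of the weakest of these. The weakest with Dbp, that of Fbp1, did not pass by rho (permutation test, adjusted p = 0.0775). As above, the permutations took no account of the subtracted means. Gys2 had r = −0.73 and rho = −0.70 with Arntl and 0.60 and 0.52 with Dbp (permutation p = 1e-05 for each, −0.70 and 0.57 without the 2 libraries furthest from the Gys2 median). It kept r between −0.77 and −0.66 with Arntl within the 3 ages. Pck1 and Arntl had r = −0.53 and rho = −0.53 (−0.51), and Ppp1r3c and Arntl 0.50 and 0.48 (0.47). G6pc, whose promoter holds the TTACGTAA palindrome shown above, had r = −0.38 and rho = −0.48 with Dbp (−0.36) and r = 0.08 and rho = 0.01 with Arntl (permutation p = 0.329 and 0.893).

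Over all 14978 genes tested at every age, the 3 with the highest r to each member were listed as a description. Pck1 was most like Klf15 (r = 0.85 over all libraries), a transcription factor of gluconeogenesis, then Slc25a51 (0.85) and Cln8 (0.83). Ppp1r3g was most like Lpin2 (0.81), Maff (0.77) and Mknk2 (0.72). For Gys2 they were Ak4 (0.80), the clock-driven factor Tef (0.77) and Bnip3 (0.75), and for Pygl Pdhb (0.75) and the lipogenic genes Acly (0.72) and Elovl6 (0.70). Ppp1r3b was nearest to Slc25a44 (0.66), Tsc22d3 (0.62) and the fatty acid synthase gene Fasn (0.62), Ppp1r3c to Malt1 (0.72), Ccn1 (0.72) and Rcor3 (0.70), and Ppargc1a to Slc7a2 (0.75), Zfp385b (0.72) and Glt1d1 (0.69). G6pc and Fbp1 had weaker neighbours, Arl4d (0.60), Ankrd33b (0.55) and Slc25a25 (0.53) for the former and Gnmt (0.59), Gls2 (0.56) and Hgd (0.54) for the latter.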

How the data were processed

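Polyadenylated RNA of flash-frozen liver was read in 167 libraries on HiSeq machines from Illumina, per the labels' protocols. The submitters' processing notes name CASAVA 1.8.2. Which aligner, counter and build were used is not given in the sources used here. Per gene, the authors deposited estimated counts (expected counts), of which 14.1% were not whole, and FPKM, both for 39179 Ensembl IDs. GENCODE M21 (GRCm38) supplied symbols and positions and matched 37693 IDs. No 2 libraries held identical values. Totals of 32025244 to 57151736 counts per library set the counting precision.

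Counts were rounded and tested with edgeR 4.0.16 in R 4.3.3 (TMM, filterByExpr, quasi-likelihood F test, Benjamini-Hochberg adjustment across all genes tested, threshold 0.05). Genotype and sex were fitted at each age over the 7 genotypes. The CAG slope was fitted with sex over the 6 knock-in lines, and age, with changes of slope or of the sex contrast over age, in the same lines. The SE is the size of the log2 change divided by the square root of F. CPM values use TMM library sizes, and correlations used log2(CPM + 0.1) and 100000 permutations (Python 3.11.15, numpy 2.4.6). The text names the 9 genes, up to 4 called genes with the smallest p per pathway list, and the 3 genes most correlated with each member. Some genes of these lists are not reported here. Members and lists were chosen with earlier results of these data known. Relations to Dbp and Arntl, the sex contrast between ages, and leaving out single Q80 and Q92 libraries were added after the data were seen.

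Each fit was repeated with DESeq2 1.42.0, with RLE size factors, without the filter, and with limma 3.58.1 on log2(FPKM + 0.1). Further repeats took only both groups compared, a replicate block, the index set as covariate, 1 sex, the rank of the repeat length, or fewer libraries. The code was tested on simulated data.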

Additional observations from a re-analysis of the deposited data

Results flagged for a closer look

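In 11 of 189 sets of 7 or 8 libraries (1 gene in 1 group), the highest or lowest library stood further from the rest than Dixon's 95% limit allows, and chance alone gives about 1 in 20. The values are CPM. G6pc was 21.2 in Q175 female F4 at 10 months (others 113.7 to 470.9), a library with adipocyte and muscle markers, and 96.6 in Q92 female F3 at 2 months (others 233.3 to 398.4). Fbp1 was 1134.1 in Q80 female F1 at 10 months (others 777.4 to 901.7). Ppargc1a was 10.6 in Q20 male M1 at 2 months (others 17.8 to 21.7). Gys2 was 100.9 in Q140 male M2 at 2 months (others 183.6 to 256.1). Ppp1r3b was 101.2 in Q80 female F1 at 6 months (others 161.6 to 241.7) and 48.3 in WT male M3 at 10 months (others 130.0 to 276.6). Ppp1r3c was 138.1 in Q92 male M1 at 6 months (others 9.2 to 33.1). Ppp1r3g was 0.196 in Q111 male M1 at 6 months (others 1.63 to 6.44), 57.8 in Q175 female F3 at 10 months (others 0.616 to 4.29), which also had the highest muscle markers of its group, and 84.5 in Q80 male M3 at 10 months (others 1.11 to 6.99).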

How the results depend on the processing

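Of the counts of called members, 208 stayed within 1.5 times under the alternatives and 48 did not. Of the single changes, 968 kept direction and side of the threshold, 46 lost the call, 31 gained one and 2 reversed: Ppp1r3b in Q92 against Q20 at 6 months was −0.11 in males alone (0.48 in all), and Ppp1r3g at 10 against 2 months was −0.073 with limma (0.84 with edgeR). DESeq2 gave 1 call for the slope at 2 months, for Q175 at 10 months, for the slope between sexes and for the sex difference between ages, and 2 for the other lines at 6 months and for 10 against 2 months. With limma the count was 1 for Q20 against WT at 6 months, the other lines at 10 months, 6 against 2 months and 10 against 6 months, and 2 for 10 against 2 months. Fitting only both groups gave 1 for Q175 at 2 months and 0 for the other lines at 10 months, where no filter gave 1 and omission of the libraries with muscle or blood RNA 1. Females alone gave 2 for the other lines at 6 months, 0 at 10 months and 0 for the slope at 6 months, and males alone 0, 1 and 0, with 0 for Q175 at 6 months. Leaving out Q20 females F1, F3, F4 gave 0 for Q175, the other lines and the slope at 6 months. That slope also had 0 by rank, without Q20 and without Q175, and the slope at 10 months 1 without Q20. Leaving out 1 library gave 0 to 3 for the other lines at 6 months and 0 to 2 at 10 months. Causes were not tested.

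The replicate block, with the replicate number within sex, gave 4 calls for the other lines at 6 months against 1 without it, and no other count moved by over 1.5 times. The calls behind equal counts could differ: at 10 months in Q92 the block ended the call of Ppargc1a (0.56, adjusted p = 0.0515) and called G6pc (1.58, 0.0406), and at 6 months it called Pck1 between the sexes (0.32, 0.011). The deviations of libraries with the same number had a mean r of −0.0086, 0.0491 and 0.0030 at 2, 6 and 10 months. For libraries with other numbers it was 0.0028, −0.0163 and −0.0009. At 6 months M1 had the lowest Pck1 of the males in every genotype, from 844.7 CPM in Q140 to 2139.9 CPM in Q92. Whether the numbers pair the samples was therefore not settled. The index set as covariate could not be fitted for Q20 against WT at 6 months.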
